A study of Homo sapiens with 8 samples.

Results

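Replication-dependent histone genes were described in 2 human melanoma cell lines, with and without introduced ATF3, an ATF/CREB transcription factor that cells induce under stress. Members were all genes of the authors' table whose Entrez identifier has a current symbol of the H1-1 to H1-6, H2AC, H2BC, H3C or H4C series. No measured value entered this rule, though the members were chosen with earlier results of these data known. Of 69 such symbols, 63 were analysed among 18478 genes: 4 linker histone H1, 16 H2A, 17 H2B, 13 H3 and 13 H4 genes. H1-1, H1-6, H2AC1, H2BC1, H4C6 and H4C7 were not analysed here, and 3 of these (H1-6, H2AC1 and H2BC1) are known as germ-line members. The groups were C8161 cells transduced with an ATF3 retrovirus (3 libraries), C8161 neomycin controls (3 libraries), A2058 cells transduced with the same factor (1 library) and A2058 neomycin controls (1 library). Cultures were kept in DMEM plus 10% serum, and neither the promoter driving ATF3 nor whether the cells were clones or pools is given in the sources used here.

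Replication-dependent histone genes supply the core and linker histones that package newly copied DNA. They sit in clusters, are transcribed mainly in S phase with NPAT as a shared coactivator, and most of their mRNAs end in a stem-loop bound by SLBP in place of a poly(A) tail. Some members also make polyadenylated transcripts, and the replication-independent variants, such as H2AZ1 and H3-3A, are polyadenylated throughout the cell cycle. How far a library holds histone mRNA therefore depends on whether RNA was selected by its poly(A) tail. The labels give total RNA and do not state the selection, so the amount of a histone mRNA and the share of it that was captured cannot be told apart.

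The values are RPKM, reads scaled to transcript length and library size. The 2 C8161 columns are the authors' combined values over 3 libraries an arm, with no value per library, and each A2058 column is 1 library. No replicate spread could be computed and no test was run, so each difference below compares 2 columns, not conditions, and its size against biological error is unknown. Steps in the low values put the A2058 libraries at about 17700000 reads with ATF3 and 18100000 in the control, so that 1 read on 500 bases was worth 0.113 and 0.11 RPKM; the C8161 columns had no such steps and their depth is unknown. ATF3 itself was listed at 62.57 RPKM in C8161 with ATF3 against 4.76 in its control, and at 4.71 RPKM in A2058 with ATF3 against 1.22 in its control. Melanocyte markers were low in C8161 (PMEL 0.13 and 0.18 RPKM with ATF3 and in the control, SOX10 0.05 and 0.06) and high in A2058 (PMEL 853 and 806, SOX10 253 and 254). PTPRC, a leukocyte marker, stayed at or under 0.43 RPKM in every column.

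The sequence features that mark this gene class were present in part of the members. A search of GENCODE 29 transcripts for the stem-loop (GG, any 2 bases, CTTT, any 2 bases, AG, any base, G, any base, C, on the strand of the transcript) matched 30 of the 63 members and 310 of 206694 transcripts (0.15%). No match says only that these letters are not in the annotated transcripts. The variants of the element are shown because those of H4 genes differed from those of the other classes, with the 4-base loop in capitals.
H2AC6 (also 5 other H2A, 8 H2B and 3 H3 members): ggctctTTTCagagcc
H2BC5 (also H2BC4, H2BC7 and H3C8): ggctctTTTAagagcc
H2AC11: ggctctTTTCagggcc
H4C8 (also 4 other H4 members): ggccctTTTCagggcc
H4C14 (also H4C15 and H4C9): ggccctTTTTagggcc

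Promoters were read from RefSeq (GRCh38.p14) as the 250 bases before the start, available for 58 members. Motifs were searched on both strands, overlapping matches counted separately: the CCAAT box (CCAAT or ATTGG), the TATA element (TATAAA or TTTATA), the octamer of H2A and H2B promoters (ATTTGCAT or ATGCAAAT), the cAMP response element or CRE (TGACGTCA), to which ATF/CREB factors are known to bind, and the AP-1 site (TGACTCA or TGAGTCA). The CCAAT box was in 84.5% of member promoters against 33% of all 27305 promoters, the TATA element in 65.5% against 11.1%, and the octamer in 41.4% against 1.66%. By class, the octamer was in 13 of 17 H2B and 10 of 15 H2A windows, in 1 of 11 H3 windows (that of H3C4, which is the same window as that of H2AC7) and in no H1 or H4 window, and the CCAAT box was in 2 of 11 H4 windows. The CRE was in 9 member windows (15.5% against 1.77%) and the AP-1 site in 0 of 58 (against 4.16%). Windows of close divergent partners overlap, so the same stretch can be counted in more than 1 window. The CRE of H2AC14 and H2BC14 is such a stretch, and the H3C14 and H3C15 windows are near-identical copies. A match is a description of letters, not of a bound site. The windows below are those of the highest member (H2BC12, the one of these with a CRE), of the members that stood out below (H2AC6, H1-2, H2AC8) and of a near-identical H4 pair. Capitals mark the motif matches.
H2BC12, chr6:27146859-27147108, minus strand: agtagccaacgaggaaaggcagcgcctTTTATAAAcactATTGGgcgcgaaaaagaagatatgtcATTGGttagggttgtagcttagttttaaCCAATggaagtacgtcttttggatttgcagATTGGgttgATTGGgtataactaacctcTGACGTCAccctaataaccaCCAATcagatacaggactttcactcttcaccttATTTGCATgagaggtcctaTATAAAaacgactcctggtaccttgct
H2AC6, chr6:26123922-26124171, plus strand: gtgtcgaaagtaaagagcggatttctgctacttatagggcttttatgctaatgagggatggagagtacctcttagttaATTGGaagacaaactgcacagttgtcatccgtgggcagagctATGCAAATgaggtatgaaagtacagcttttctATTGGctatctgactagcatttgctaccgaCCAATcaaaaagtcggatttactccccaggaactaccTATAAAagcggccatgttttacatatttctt
H1-2, chr6:26056471-26056720, minus strand: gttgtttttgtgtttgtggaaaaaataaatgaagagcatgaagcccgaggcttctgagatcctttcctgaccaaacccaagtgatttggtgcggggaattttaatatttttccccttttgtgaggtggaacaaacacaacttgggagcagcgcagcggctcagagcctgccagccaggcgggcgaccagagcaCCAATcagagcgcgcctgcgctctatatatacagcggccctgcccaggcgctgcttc
H2AC8, chr6:26216671-26216920, plus strand: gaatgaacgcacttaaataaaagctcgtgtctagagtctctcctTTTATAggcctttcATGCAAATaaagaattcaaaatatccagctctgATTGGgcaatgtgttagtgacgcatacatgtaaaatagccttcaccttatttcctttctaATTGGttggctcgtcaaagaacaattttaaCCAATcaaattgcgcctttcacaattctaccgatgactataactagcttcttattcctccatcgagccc
H4C11, chr6:27823842-27824091, plus strand: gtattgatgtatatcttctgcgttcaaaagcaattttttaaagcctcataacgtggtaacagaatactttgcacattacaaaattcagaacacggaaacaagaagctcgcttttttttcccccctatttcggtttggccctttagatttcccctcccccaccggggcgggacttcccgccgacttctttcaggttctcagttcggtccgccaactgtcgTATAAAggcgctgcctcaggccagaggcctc
H4C12, chr6:27831561-27831810, minus strand: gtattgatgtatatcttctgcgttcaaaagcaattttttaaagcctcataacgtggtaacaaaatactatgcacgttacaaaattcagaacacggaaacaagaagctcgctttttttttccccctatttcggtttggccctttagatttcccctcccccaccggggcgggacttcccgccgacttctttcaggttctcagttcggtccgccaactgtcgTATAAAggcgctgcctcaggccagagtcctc

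Replication-dependent histone mRNA was a small part of every column. The 63 members summed to 59.51 RPKM in C8161 with ATF3 and 65.25 in its control, and to 229.91 RPKM in A2058 with ATF3 and 227.03 in its control, or 0.0126%, 0.0136%, 0.0483% and 0.0482% of the column sums. The summed level of the members was thus higher in both A2058 columns than in both C8161 columns, and close within each line. The replication-independent variants summed to 24.3 and 23.4 times the members in C8161 with ATF3 and in its control, and to 5.63 times in both A2058 columns. The median level of a member was 0.23, 0.27, 0.41 and 0.56 RPKM in the same order of columns, against 2.81, 2.77, 4.11 and 4.13 RPKM over all genes. Only 26 members reached 1 RPKM in any column: 1 H1, 8 H2A, 8 H2B, 2 H3 and 7 H4 genes.

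Few genes carried the sum. H2BC12, which encodes a histone H2B, had 26.29 RPKM in C8161 with ATF3 and 29.31 in its control, and 89.21 RPKM in A2058 with ATF3 and 80.58 in its control. It was the highest member in every column, and 74.1% of its 50-base stretches also occur in transcripts of other genes, so its value may hold reads of near-identical copies. The 8 members listed as having known polyadenylated transcripts (H1-2, H2AC6, H2AC18, H2AC19, H2BC4, H2BC5, H2BC12 and H2BC21) made up 73.5% and 68.8% of the members' sum in C8161 with ATF3 and in its control, and 72.6% and 68.9% in A2058. Members whose annotated transcript runs at least 100 bases past the stem-loop (22 genes) had a median of 2.2 RPKM in the A2058 control. Those that end within 100 bases of it (8 genes) had a median of 1.01, and those with no match (33 genes) 0.43. In the C8161 control the medians were 0.405, 0.725 and 0.12 in the same order, so the first 2 sets ranked the other way. The ranges of these 3 sets in the A2058 control overlapped, and all contained genes at 0.

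Read sharing limits several values. For 16 members at least 50% of the 50-base stretches occur elsewhere, and H2AC18 with H2AC19, H4C14 with H4C15, and H3C14 with H3C15 had identical values in every column. Each such pair is 1 measurement. The gene models of H4C9 and H2BC12, of H2AC7 and H3C4, and of H4C15 with H2AC19 and H3C15 overlap, as do H2BC18 with FCGR1A and H2BC5 with H2BC6-AS1 and LARP1P1. The strand setting of the counting is not given in the sources used here, so reads of overlapping genes cannot be told apart.

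The summed level of each of the 5 classes was lower in C8161 than in A2058. H1 genes summed to 7.38 and 5.71 RPKM in C8161 with ATF3 and in its control, against 16.07 and 14.97 RPKM in A2058 with ATF3 and in its control. That H1 gap was the gap of H1-2: the other 3 H1 genes summed to 0.43 and 0.5 RPKM in C8161 against 0.36 and 0.51 in A2058, with H1-3 and H1-5 higher in both C8161 columns. H2A genes summed to 12.19 and 12.66 RPKM in the C8161 columns, against 59.47 and 64.16 in the A2058 columns. H2B genes summed to 32.19 and 36.28 RPKM in C8161, against 123.96 and 116.16 in A2058. No class sum overlapped between lines. H3 genes summed to 2.7 and 2.93 RPKM in C8161, against 8.41 and 8.49 in A2058. H4 genes summed to 5.05 and 7.67 RPKM in C8161, against 22 and 23.25 in A2058. Between the control columns, the A2058 sum over the C8161 sum was 5.07-fold for H2A, 3.20-fold for H2B, 3.03-fold for H4, 2.90-fold for H3 and 2.62-fold for H1. Without H2BC12 the other 16 H2B genes stood at 5.10-fold, close to H2A. The fold was 3.48 over all members and 4.07 without H2BC12. In bulk RNA, fewer cells in S phase and less histone mRNA per cell cannot be told apart.

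**Figure D1:**
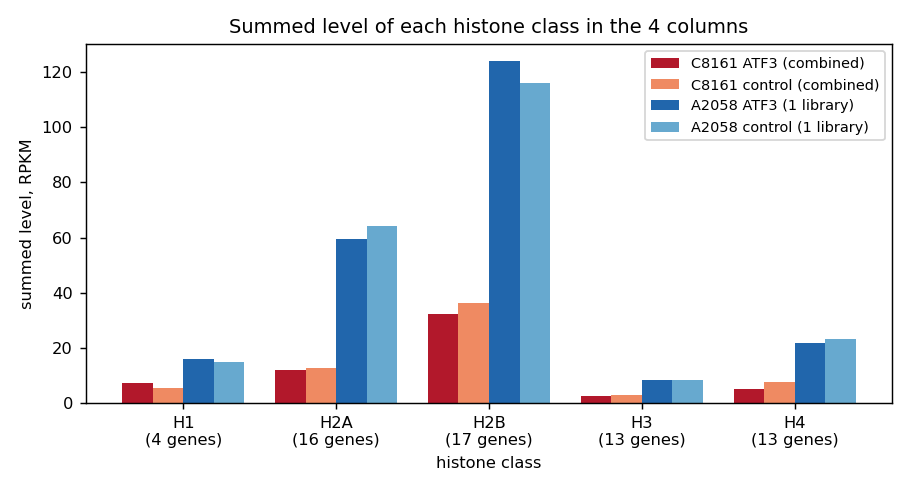
Summed RPKM (y axis, from 0) of the 63 members by histone class (x axis) in the 4 columns, with no error bars because no replicate values exist. The A2058 bars stand above the C8161 bars in every class, and H2B is the highest class in each column.

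Counted gene by gene with no minimum level, 41 of the 63 members lay below both A2058 columns in both C8161 columns, against 50.4% of all genes, and 8 lay above, against 29.8% of all genes; 14 overlapped. The log2 ratio, log2(RPKM + 1) in control C8161 minus that in control A2058, had a median of −0.54 over the 59 members not at 0 in both columns, against −0.09 over all genes treated alike. Of the 11 members with at least 1 RPKM in both control columns, 11 were lower in C8161 by more than 1 on this scale, a size that 13.9% of all genes at that level passed in this direction. Their ratios ran between −2.61 and −1.09. Among the 11, H2AC18 with H2AC19 and H4C14 with H4C15 are identical pairs, each 1 measurement. With GC and length trends removed 6 of the 11 passed that size (H1-2, H2AC18, H2AC19, H2BC12 and H4C3 did not), and after quantile normalization 8 did (H4C3, H4C14 and H4C15 did not), with 11 below 0 in both cases. Another 14 members passed a 1 RPKM minimum only through A2058 and so had to differ, and are not counted in support.

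On the log2(RPKM + 1) scale the 3 largest gaps between the control columns were in H2A and H2B genes. Among the 26 members that reached 1 RPKM in any column, H4C9 had the largest fold of A2058 over C8161. It had 0.10 RPKM in control C8161 against 1.14 in control A2058. Some members below 1 RPKM had larger folds, such as H2AC15 (0.04 against 0.9). H2BC5 had 1.94 RPKM in C8161 with ATF3 and 1.73 in its control, against 16.18 in A2058 with ATF3 and 15.65 in its control (−2.61 between the control columns). H2AC6, which encodes a histone H2A, had 4.07 and 3.29 RPKM in the C8161 columns against 21.94 and 23.43 in the A2058 columns (−2.51). H2AC25, an H2A gene of the small cluster on chromosome 1, had 1.99 and 2.39 RPKM in C8161 against 11.8 and 12.5 in A2058. In each of these 3 genes the lower A2058 value was several times the higher C8161 value, and less than 6% of the sequence was shared with other genes, though H2BC5 overlaps other gene models. H1-2, a linker histone gene, had 6.95 and 5.21 RPKM in C8161 against 15.71 and 14.46 in A2058. H3C10, the H3 member with the highest mean, had 0.23 and 0.42 RPKM in C8161 against 3.24 and 2.73 in A2058. H4C3 had 1.10 and 1.37 RPKM in C8161 against 2.46 and 4.13 in A2058.

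**Figure D2:**
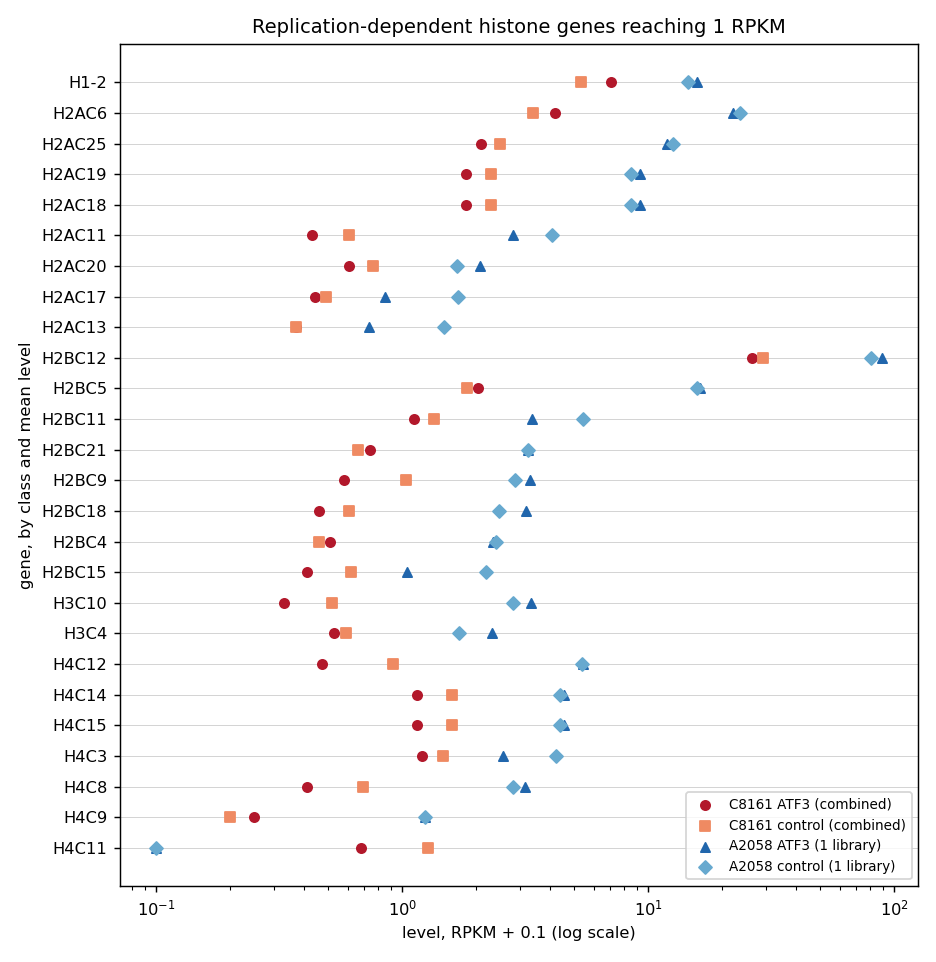
Level of the 26 members that reached 1 RPKM in at least 1 column, as RPKM + 0.1 on a log axis, 1 row per gene by class and mean level. Both C8161 symbols lie left of both A2058 symbols except in H4C11. Of all genes that reached 1 RPKM in at least 1 column, 54.7% had both C8161 columns below both A2058 columns. The genes shown include 14 that reached 1 RPKM in control A2058 but not in control C8161.

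The 1 member above 1 RPKM that ran the other way, H4C11, belongs to a pair of near-identical H4 genes. H4C11 had 0.58 and 1.17 RPKM in C8161 with ATF3 and in its control, and was listed at 0 in both A2058 columns. H4C12 had 0.37 and 0.82 RPKM in C8161, against 5.31 and 5.28 in A2058. Their promoter windows, printed above, differ at 5 of 250 bases, and 81.2% of H4C11 and 100% of H4C12 is shared sequence. The sum of both genes was 0.95 and 1.99 RPKM in C8161 against 5.31 and 5.28 in A2058, in the direction of the other members, so the division of reads within the pair is uncertain.

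A few low members ran the other way without shared reads, and were picked out after their values were seen. H2AC8 had 0.58 and 0.25 RPKM in C8161 with ATF3 and in its control, and 0 in both A2058 columns. H2BC8, its divergent neighbour 232 bases away, had 0.25 and 0.37 RPKM in C8161, and 0 in both A2058 columns. H3C8 had 0.39 RPKM in both C8161 columns and 0 in both A2058 columns. None of the 3 shares a 50-base stretch with another gene. The H2AC8 window printed above spans the stretch between H2AC8 and H2BC8 and holds 3 CCAAT boxes, a TATA element and an octamer, which were read in the H2BC8 window too. All of these values are low, and whether they differ beyond counting error was not tested.

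Divergent H2A and H2B partners with fewer than 250 bases between them ranged from near to far apart in level. Only members with a promoter window, which gave the strand, were paired. Of 10 such pairs 8 had both genes above 0 in the A2058 control. Their folds lay between 1.34 and 43.1, and 5 of the 8 were under 3-fold. H2AC12, which borders the H2BC12 window, had no window of its own and was not paired. It had 0.73 RPKM in the A2058 control against 80.58 for H2BC12, a wider gap than in any of the 8 pairs. H2AC6 stood at 21.94 and 23.43 RPKM in A2058 with ATF3 and in its control, and its partner H2BC4, 245 bases away, at 2.23 and 2.31. H2AC25 stood at 11.8 and 12.5 RPKM in the same columns, and its partner H2BC26 at 0.64 and 0.29. It was the widest of the 8 pairs, which rests on the low value of H2BC26. H2BC11 and H2AC11, 247 bases apart, were closer, at 3.27 and 5.33 RPKM for H2BC11 and 2.71 and 3.98 for H2AC11. The gap between lines was not limited to 1 cluster: the A2058 control sum over the C8161 control sum was 4.26-fold for the 28 members at chr6:26020451-26285534, 2.93-fold for the 5 at chr6:27132316-27147562, 3.35-fold for the 16 at chr6:27807479-27893891 and 3.60-fold for the 11 at chr1:149782689-149887965 (GRCh38.p14).

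The medians of genes that act with the members lay above that of all genes. In control C8161 against control A2058 the median log2 ratio was 0.08 over 30 S phase genes, 0.27 over 20 genes of G2 and M phase, −0.10 over 24 histone chaperones and −0.08 over 20 genes of histone mRNA processing and transcription, against −0.19 over all genes. SLBP, which binds the stem-loop, had 42.67 RPKM in C8161 with ATF3 and 44.49 in its control, against 40.72 in A2058 with ATF3 and 39.7 in its control. NPAT, the coactivator of histone genes in S phase, had 3.07 and 3 RPKM in C8161 against 4.13 and 4.57 in A2058. PCNA, the DNA polymerase clamp, had 125 and 129 RPKM in C8161 against 127 and 122 in A2058. Other S phase genes of high mean were lower in control C8161 than in control A2058: MCM7 (95.28 against 163.16), TYMS (90.58 against 157.98) and CDK2 (48.37 against 167.67). Of the 30 S phase genes 17 were above 0 and 13 below, between −2.15 (CCNE1) and 1.61 (RRM2). Past 1, 4 were higher (9.37% of all genes) and 2 lower (20.7%). Of the 11 replication-independent variants compared, 10 were above 0, with a median of 0.23. H2AZ1, the highest of them, had 540 and 597 RPKM in C8161 against 515 and 518 in A2058. MACROH2A2, a macroH2A gene, had 14.33 and 15.33 RPKM in C8161 against 0.13 in both A2058 columns.

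**Figure D3:**
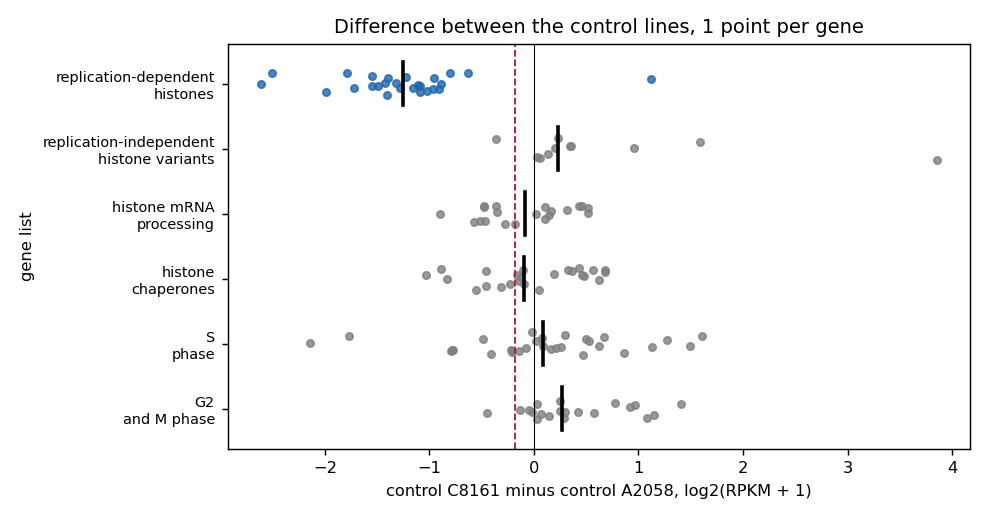
Log2 ratio of control C8161 over control A2058, from log2(RPKM + 1) (x axis), 1 point per gene with at least 1 RPKM in either column, by gene list; black bars are medians and the dashed line is the median of all genes, −0.19. H4C11 is the 1 histone member right of 0, and 14 of the 26 passed the minimum only through A2058.

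With ATF3 in C8161, the members' sum was 0.912 of its control, and the classes did not move alike. H1 stood at 1.29 of control, H2A at 0.963, H3 at 0.922, H2B at 0.887 and H4 at 0.658. The H1 figure was that of H1-2, as the other 3 H1 genes, near 0, stood at 0.86. The 47 members that share under 50% of their sequence summed to 24.79 RPKM with ATF3 against 24.8 in the control, and without H1-2 to 17.84 against 19.59, or 0.911 of control. With no minimum, 22 members were higher, 34 lower, 3 equal and 4 at 0 in both columns. The median log2 ratio of the 59 not at 0 in both was −0.054, against 0 over all genes treated alike. In H4, 3 were higher and 9 lower of 13, the lower including the identical pair H4C14 and H4C15 and H4C1 at 0 against 0.05 RPKM. Of the 12 members with at least 1 RPKM in either column, 3 were above 0 and 9 below, with a median log2 ratio of −0.18 against 0.01 over all 10941 genes compared. Of those 10941 genes, 47.3% were below 0. By the 0.25 size on the log2 scale, about 1.19-fold, 1 member was higher (2.58% of all genes) and 3 were lower (3.2% of all genes). The 3 lower were H4C11, which passed the minimum only through the control, and the pair H4C14 and H4C15, which is 1 measurement. CDH5, an endothelial marker, had 18.14 RPKM with ATF3 against 8.86 in the control, while the endothelial markers PECAM1 (0.2 against 0.11) and VWF (0.04 against 0.02) stayed near 0; their part in the histone values was not tested.

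H1-2 had 6.95 RPKM in C8161 with ATF3 against 5.21 in its control, a log2 ratio of 0.36. H1-10, a replication-independent linker histone gene, had 45.54 RPKM with ATF3 against 43.62 in the control (0.06). H2AC6 had 4.07 RPKM with ATF3 against 3.29 in the control (0.24), and H2BC5 had 1.94 against 1.73 (0.11), both under the size used. H4C14 and H4C15 had 1.05 RPKM each with ATF3 against 1.49 in the control (−0.28). H4C3, an H4 gene that shares no sequence, had 1.10 RPKM with ATF3 against 1.37 in the control (−0.17), and H2BC12 had 26.29 against 29.31 (−0.15). Counting each identical pair once leaves 10 measurements: the 3 above 0 share under 6% of their sequence, and 4 of the 7 below share at least 50%. With GC and length trends removed, H2BC12 was at −0.0067 and H2AC18 at −0.097, against −0.23 for H2AC18 before.

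With ATF3 in A2058, the members' sum was 1.01 of its control, with H1 and H2B at 1.07, H3 at 0.991, H4 at 0.946 and H2A at 0.927. The members' sum without H2BC12 was 0.961 of its control, on the other side of 1. On that side too were the other 16 H2B genes (0.977) and, without H1-2, the other 3 H1 genes (0.706). Those 3 H1 genes were near 0, at 0.36 RPKM in sum with ATF3 against 0.51 in the control. With no minimum, 24 members were higher, 25 lower, 3 equal and 11 at 0 in both columns. The median log2 ratio of the 52 not at 0 in both was 0, against 0.002 over all genes treated alike. Of the 25 members compared, the median log2 ratio was 0.05 and the mean −0.07, of opposite sign, against a median of 0.00 over 11883 genes. By the 0.25 size, 2 were higher (2.34% of all genes) and 6 lower (1.85%), and H2AC13, H2AC17 and H2BC15 of the lower passed the minimum only through the control. Among the 22 members with at least 1 RPKM in both columns, 2 were higher (1.95% of all genes at that level) and 3 lower (1.38%).

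H4C3 had 2.46 RPKM in A2058 with ATF3 against 4.13 in the control (−0.57). H2BC11 had 3.27 RPKM with ATF3 against 5.33 in the control (−0.57). Its divergent partner H2AC11 had 2.71 RPKM with ATF3 against 3.98 in the control (−0.42). Whether these differences exceed counting error was not tested. H2BC18 had 3.07 RPKM with ATF3 against 2.37 in the control (0.27), with FCGR1A overlapping it, and H3C4 had 2.22 against 1.60 (0.31), with all of its sequence shared. The highest members differed less: H2BC12 had 89.21 RPKM with ATF3 against 80.58 in the control (0.15), H2AC6 21.94 against 23.43 (−0.09), and H1-2 15.71 against 14.46 (0.11).

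**Figure D4:**
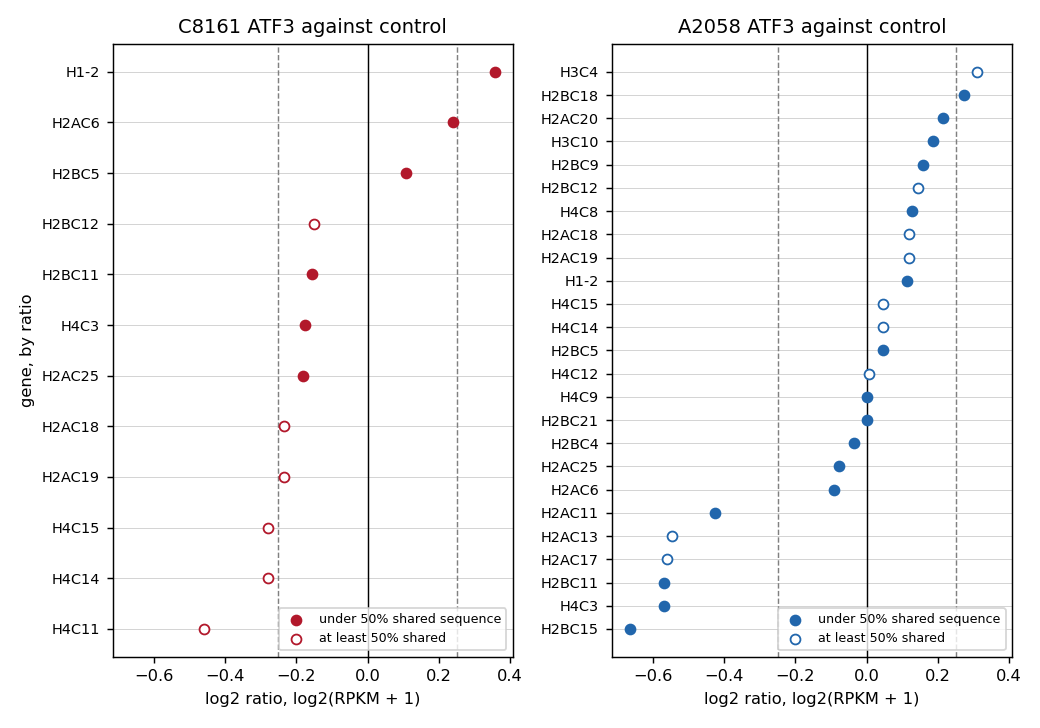
Log2 ratio of ATF3 over control, from log2(RPKM + 1) (x axis), for the members with at least 1 RPKM in either column of C8161 (left, 12 genes) and A2058 (right, 25 genes), sorted by ratio; dashed lines mark 0.25 and open points share at least 50% of their sequence. H1-2 is the highest in C8161, and 6 genes lie left of −0.25 in A2058.

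Across lines, 11 members were compared in both. Of these, 2 were higher with ATF3 in both lines, 3 lower in both, 1 higher in C8161 and lower in A2058, and 5 lower in C8161 and higher in A2058 (3 measurements, as 2 identical pairs are among them); the difference between lines was not tested. H4C3 and H2BC11 were among those lower in both, at −0.17 and −0.16 in C8161 and −0.57 in both cases in A2058. The list with known polyadenylated transcripts summed to 0.975 of control in C8161 and 1.07 in A2058, and the other 55 members to 0.773 and 0.893. H2BC12 alone was 29.31 of the list's 44.86 RPKM in control C8161 and 80.58 of 156.35 in control A2058. The other 55 include genes with annotated transcripts running far past the stem-loop, such as H4C8 (1655 bases) and H2BC18 (1479 bases). These sums therefore do not separate polyadenylated from other members. Of the 9 members with a CRE in the promoter window, H2BC12 was compared in C8161 (−0.15), and H2BC12 (0.15) and H4C8 (0.13) in A2058. H4C8 had 3.06 RPKM in A2058 with ATF3 against 2.72 in the control. Of the genes that act with the members, LSM10, a protein of the U7 snRNP that processes histone mRNA, had 44.2 RPKM in C8161 with ATF3 against 56.46 in the control (−0.35). The other 19 processing genes lay within 0.25, and no S phase gene passed that size in either line. Of 20 genes of G2 and M phase, 2 were higher past 0.25 in C8161 (the proliferation marker MKI67, 35.07 RPKM with ATF3 against 28.46 in the control, and the kinesin CENPE, 5.36 against 4.2), with a list median of 0.07. Among the chaperones, TONSL had 14.24 RPKM in C8161 with ATF3 against 17.73 in the control (−0.30) and the importin IPO4 33.18 against 40.23 (−0.27).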

How the data were processed

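Total RNA of 8 libraries was measured. The authors deposited 1 table of RPKM with 2 decimals, per the file headers, with Bowtie2, RSEM and hg38 named per the submitters' processing notes; their versions, the annotation, the strand setting and any poly(A) selection were not found in these sources. Symbols, promoters and gene spans came from RefSeq GRCh38.p14, matched on the Entrez identifier for 18156 genes, and transcripts from GENCODE 29. Ratios are differences of log2(RPKM + 1), for genes reaching 1 RPKM in either column unless stated, and sizes of 0.25 (ATF3 against control) and 1 (between lines) were used for counts. The limma fit planned for values per library was not run, since each C8161 arm has 1 combined column. Depth in A2058 was estimated from steps of low values. Sharing was counted over 50-base stretches. Named genes were those with the highest mean in each class, the highest and lowest ratios in each comparison, and the highest and most different genes of the other lists. The members and lists were chosen with earlier results of these data known. Alternatives changed the pseudocount, minimum, scaling, GC and length trends, and shared members. Computation used Python 3.11.15, pandas 2.3.3, numpy 2.4.6 and scipy 1.17.1, and was tested on simulated data.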

Additional observations from a re-analysis of the deposited data

How the results depend on the processing

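No paired analysis was possible because the C8161 arms, which share replicate numbers, have 1 combined column each, and leaving out a replicate could not be run for the same reason. The median and sum between lines stayed below 0 in every alternative run. Of the 26 members in the main median, 14 passed the minimum only through control A2058 and so had to differ. Medians and counts that include such members are not counted in support. The median between the control lines (−1.25) was −1.94 with a pseudocount of 0.1, −0.54 with no minimum, −1.55 with a minimum of 5 RPKM, −0.82 after quantile normalization (which moved the median of all genes to 0.08), −1.14 with GC and length trends removed, and −1.49 with the minimum in both columns. The count past 1 in either direction (20 of 26, 19 of them lower, against 30% of all genes) became 9 of 9 with a minimum of 5 RPKM (28.7%), 11 of 25 after quantile normalization (28.7%), 13 of 16 with members under 50% shared (30%), 2 of 26 at the doubled size (10.5%) and 11 of 11 with the minimum in both columns (20.8%). The log2 ratio of sums (−1.80) was −2.13 with members under 50% shared, −2.03 without H2BC12 and −1.36 after quantile normalization. For C8161 with ATF3, the median (−0.18) was −0.28 with a pseudocount of 0.1, −0.054 with no minimum, −0.098 with GC and length trends removed, −0.024 over the 6 members under 50% shared, and 0.10, of the opposite sign, over the 2 with at least 5 RPKM. Its count past 0.25 (4 of 12, against 5.78% of all genes) became 10 of 12 with a pseudocount of 0.1 (9.44%), 10 of 59 with no minimum (4.07%), 1 of 2 with a minimum of 5 RPKM (5.95%), 1 of 6 with members under 50% shared (5.78%), and 0 of 12 at the doubled size (0.274%). Its log2 ratio of sums (−0.13) was −0.00058 under 50% shared. For A2058, the count (8 of 25, against 4.19%) became 22 of 52 with no minimum (4.77%), 1 of 9 with a minimum of 5 RPKM (1.85%), 5 of 16 with members under 50% shared (4.19%), 5 of 25 at the doubled size (0.539%) and 5 of 22 with the minimum in both columns (3.32%). Of the 5 at the doubled size, H2AC13, H2AC17 and H2BC15 passed the minimum only through the control. The A2058 log2 ratio of sums (0.02) turned to −0.072 with members under 50% shared and −0.058 without H2BC12. The minimum in both columns, and leaving out H1-2 or, from the H2B genes, H2BC12, were chosen after seeing the data. Beyond fewer genes or a larger size, the cause was not tested. Depth limits most members, which lie near the worth of a few reads.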
